A study of Caenorhabditis elegans with 2 samples.

Results

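The genes described here encode proteins of the splicing machinery of Caenorhabditis elegans. They were taken by symbol as the protein-coding genes named snr, rsp, lsm, prp, rnp, uaf or sfa followed by a number, which gave 47 of 19973 nuclear protein-coding genes in the Ensembl annotation. The families held 7 snr, 8 rsp, 7 lsm, 13 prp, 9 rnp, 2 uaf and 1 sfa genes. The label fits most of them, although rnp-8, which encodes a partner of the poly(A) polymerase GLD-2, and lsm-1, whose product acts in cytoplasmic mRNA decay, are named alike without being splicing factors.

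Binding of PES-1, a forkhead transcription factor, was mapped by ChIP-seq, in which DNA bound by a protein is precipitated with an antibody and sequenced. The material was whole embryos of strain RW12239, labelled as early embryonic with an age of 1 hour and synchronized by egg bleaching. In this strain (st12239[pes-1::TY1::EGFP::3xFLAG] IV) CRISPR editing placed the tag at the gene itself, and the tagged protein was precipitated through its green fluorescent protein. There was 1 group of 2 biological replicates, no untagged strain among the samples, and 1 control file shared by both replicates. Whole embryos mix all cell types, so a weak peak in all cells and a strong one in a few cannot be told apart. No RNA or protein was measured, so the stage and the tag could not be checked against markers, and the depth of sequencing is unknown, since the files give none. Intervals below cover the counting of genes and not the sampling of reads. The analysis used peak lists on the ce11 assembly. The conservative list held 1452 peaks, all with an irreproducible discovery rate (IDR, which is low where replicates rank a peak alike) of 0.01 or lower, and a promoter peak was a summit from 1000 bp upstream to 200 bp downstream of a transcript 5' end.

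Splicing removes introns in the spliceosome, which is built from small nuclear ribonucleoproteins (snRNPs) and many further proteins. Sm proteins, encoded by the snr genes, form the ring around the U1, U2, U4 and U5 RNAs, and LSm proteins form the ring of the U6 RNA or, in the cytoplasm, a ring that acts in mRNA decay. SR proteins, encoded by the rsp genes, bind exons and help the choice of splice sites, and in C. elegans the same machinery also joins the spliced leader to the start of many mRNAs. Early embryos carry a large maternal store of mRNA for such housekeeping functions.

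The sequences that follow are the genome around the summits of the splicing gene promoter peaks, shown because all later statements on position, base composition and motifs refer to them. Each runs from 50 bp before to 50 bp after the summit on the forward strand of the RefSeq copy of the WBcel235 genome, which is the ce11 assembly. The prp-19 sequence ends where the annotated transcript of its neighbour K10D2.5 starts. Capitals mark TATAAA or its reverse complement, the one of 5 searched motifs found in these windows. The windows at snr-2 and rnp-6 are not printed.
snr-1, chrIV:17087575-17087675: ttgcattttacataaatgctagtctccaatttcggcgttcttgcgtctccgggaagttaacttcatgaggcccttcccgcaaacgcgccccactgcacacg
prp-19, chrIII:5172647-5172719: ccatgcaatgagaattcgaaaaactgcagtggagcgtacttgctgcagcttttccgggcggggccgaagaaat
lsm-3, chrIV:13386188-13386288: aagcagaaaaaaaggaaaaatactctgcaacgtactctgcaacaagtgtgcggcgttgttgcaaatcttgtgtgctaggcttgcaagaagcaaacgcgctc
rsp-1 and rsp-2, chrII:11453155-11453255: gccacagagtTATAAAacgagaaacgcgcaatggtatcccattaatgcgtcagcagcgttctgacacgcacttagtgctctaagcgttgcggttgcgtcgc
prp-40, chrIII:9523750-9523850: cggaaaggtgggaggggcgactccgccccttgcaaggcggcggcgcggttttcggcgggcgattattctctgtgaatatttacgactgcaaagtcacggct
uaf-2, chrIV:17117615-17117715: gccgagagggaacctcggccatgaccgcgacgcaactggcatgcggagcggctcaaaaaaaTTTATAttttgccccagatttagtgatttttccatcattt

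A promoter peak was present at 9 of the 47 splicing genes (19.1%, 95% Wilson interval 10.4 to 32.5%). These were snr-1, snr-2, lsm-3, rsp-1, rsp-2, rnp-6, prp-19, prp-40 and uaf-2. Among all protein-coding genes the share was 816 of 19973 (4.09%), and among the genes outside the set it was 807 of 19926 (4.05%, 3.79 to 4.33%). No test was run on this difference, because the members are not replicates and the design has 1 group. The count depends on how a summit between close genes is assigned: when each summit counted for the gene with the nearest 5' end alone, 2 of 47 splicing genes kept a peak, rsp-1 and uaf-2 (4.26%, 1.17 to 14.2%), near the 3.05% of all protein-coding genes. By family, a peak stood at 2 of 7 snr, 2 of 8 rsp, 1 of 7 lsm, 2 of 13 prp, 1 of 9 rnp, 1 of 2 uaf and 0 of 1 sfa genes. In the replicates' own lists the counts were 5 of 47 in replicate 1 and 9 of 47 in replicate 2, where the shares over all protein-coding genes were 3.09% and 3.42%.

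The promoter windows of the Sm protein genes held the strongest and the fourth strongest of these peaks, both with summits closer to a gene outside the set. At snr-1 (WBGene00004914), which encodes SmD3, the peak (chrIV:17087499-17087749) had a deposited signal of 436 in the list over both replicates, 161 in replicate 1 and 273 in replicate 2. It ranked 179 among the 1452 conservative peaks and was in both replicates' own lists. At snr-2 (WBGene00004915, peak at chrI:13338888-13339217), which encodes SmB, the signal was 188, with 77.3 in replicate 1 and 114 in replicate 2, and this peak was likewise in both lists. The other Sm genes, snr-3 to snr-7, had no conservative peak. At snr-3 (SmD1) and snr-5 (SmF) there was also no promoter peak in the full ranked list, which holds 74874 peaks of any strength. That list had one at 5 of 7 snr genes and at 42.7% of all protein-coding genes.

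At prp-19 (WBGene00020423), which encodes the ubiquitin ligase at the centre of the PRP19 complex, the peak (chrIII:5172586-5172792) had a signal of 435, close to that at snr-1. The summit was closer to K10D2.5, a gene outside the set. Replicate 1 gave 233 and replicate 2 gave 208, so the order of the replicates was the reverse of that at snr-1. At lsm-3 (WBGene00003077, peak at chrIV:13386073-13386402), a subunit shared by both LSm rings, the signal was 190.2, with 69.0 in replicate 1 and 123 in replicate 2. The lsm-3 summit lay 965 bp upstream of the gene, near the edge of the promoter window.

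The SR protein genes rsp-1 (WBGene00004698) and rsp-2 (WBGene00004699) shared 1 peak (chrII:11453040-11453369) with a signal of 140.3, which was 55.8 in replicate 1 and 82.5 in replicate 2. It was in the own list of replicate 2 and not in that of replicate 1. At rnp-6 (WBGene00004389, peak at chrI:3546896-3547225), the orthologue of the 3' splice site factor PUF60, the signal was 144 and the replicate signals were alike, at 67.0 and 67.0. The ranks differed, at 943 in the ranked list of replicate 1 and 1468 in that of replicate 2. This peak was in the own list of replicate 1 alone. At prp-40 (WBGene00014218, peak at chrIII:9523635-9523964), a U1 snRNP protein known from yeast to link both ends of the intron, the signal was 114, with 46 in replicate 1 and 67.6 in replicate 2. This peak was in neither replicate's own list. At uaf-2 (WBGene00006698, peak at chrIV:17117500-17117829), the small subunit of the factor U2AF that reads the 3' splice site, the signal was 113, with 40.6 in replicate 1 and 68.0 in replicate 2, and the peak was in the own list of replicate 2 alone.

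**Figure D1:**
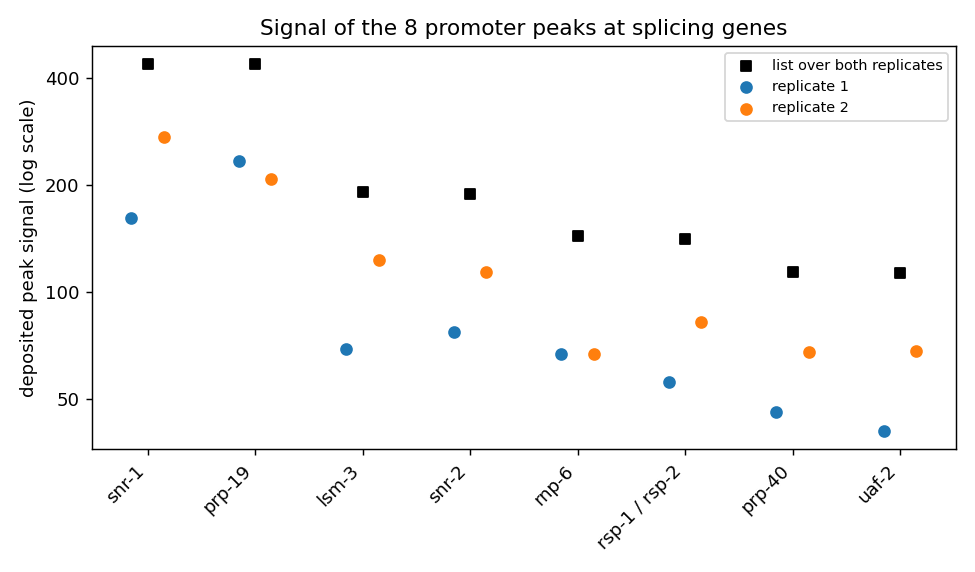
Deposited signal of the 8 promoter peaks at splicing genes on a log axis, in the list over both replicates (black squares), replicate 1 (blue) and replicate 2 (orange). Replicate 2 is higher at 6 of the 8 peaks, prp-19 is higher in replicate 1 and the rnp-6 values coincide.

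The 8 peaks were of ordinary strength for promoter peaks. Their median signal was 166 (112.7 to 436), and that of the other 642 conservative promoter peaks was 155 (quartiles 116 and 244). At the nearest summits in the replicates' full ranked lists, these 8 peaks had median signals of 68.0 in replicate 1 and 98.2 in replicate 2, and the others 68.2 and 91.8. The log2 ratio of replicate 2 to replicate 1 ran from -0.17 at prp-19 to 0.83 at lsm-3. Over the 1407 conservative peaks found in both replicates its median was 0.32 with an SD of 0.40, and 82.6% of them were higher in replicate 2. The median over the 8 splicing gene peaks was 0.56. The peak nearest to the threshold on the inside was that of uaf-2, with a -log10 IDR of 2.08, and the nearest on the outside was that of lsm-6 (1.73), followed by snr-4 (1.60).

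Most of these summits lay between 2 genes that point away from each other. Of the 9 splicing genes with a peak, 8 shared it with another gene (88.9%), against 410 of 807 other genes with a peak (50.8%). At 5 of the 8 peaks, covering 6 splicing genes, the summit lay in the gap between a splicing gene and a neighbour on the other strand. At snr-1 that neighbour was snx-13, a sorting nexin gene whose 5' end was 187 bp from the summit, while snr-1 was 424 bp away. At snr-2 it was W08E3.4 (122 bp, against 344 bp for snr-2). At prp-19 the summit was 23 bp upstream of K10D2.5 and 652 bp upstream of prp-19. At rnp-6 it was 10 bp upstream of rde-10, a gene of the RNA interference pathway, and 151 bp upstream of rnp-6. The rsp-1 and rsp-2 pair alone had splicing genes on both sides, at 157 and 250 bp.

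The other 3 peaks stood differently. The summit assigned to lsm-3 lay between Y62E10A.20 on one side and Y62E10A.23 and the Mediator gene mdt-9 on the other, all within 147 bp, and lsm-3 starts on the same strand inside the annotated span of mdt-9. The prp-40 summit lay in an intron of prp-40, 1725 bp downstream of the gene's outermost 5' end and 154 bp upstream of an internal transcript 5' end, and it was also 128 bp upstream of mrps-23, a mitochondrial ribosomal protein gene on the other strand. The uaf-2 summit lay in an intron of uaf-2, 461 bp upstream of an internal 5' end and 1102 bp downstream of the outermost one. It was in the promoter window of no other protein-coding gene. Counting outermost 5' ends alone, 7 of 47 splicing genes had a peak (14.9%) and 3.60% of the others.

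**Figure D2:**
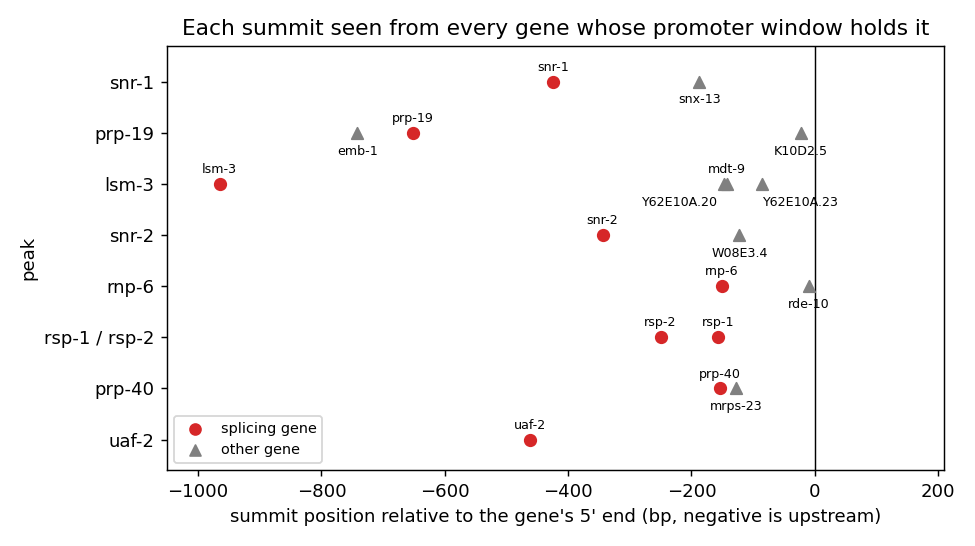
Position of each of the 8 summits relative to the 5' end of every protein-coding gene whose promoter window holds it, in bp, with splicing genes as red circles and other genes as grey triangles. At snr-1, prp-19, lsm-3, snr-2, rnp-6 and prp-40 a gene outside the set is closer to the summit than the splicing gene.

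Divergent pairs were common among the splicing genes as a whole. In 25 of 47 (53.2%) the next gene upstream lay on the other strand within 1000 bp, against 3478 of 19926 other genes (17.5%), with median gaps of 465 and 475 bp. A summit lay inside that gap for 6 of the 25 splicing genes (24.0%, Wilson interval 11.5 to 43.4%) and for 266 of the 3478 others (7.65%, 6.81 to 8.58%). By the promoter window, 8 of the 25 had a peak (32.0%) against 9.43% of other divergent genes, a count that includes the internal peaks of prp-40 and uaf-2. Of the 22 splicing genes outside such pairs, 1 had a conservative peak, lsm-3 (4.55%), against 2.91% of other genes outside them. A larger thresholded list over both replicates, called optimal here, had a peak at 4 of the 22 (18.2%, 7.31 to 38.5%) against 3.49%. The own lists had 1 of 22 against 2.10% in replicate 1 and 3 of 22 (13.6%) against 2.41% in replicate 2. The arrangement was examined after the positions had been seen. By chromosome, a peak stood at 2 of 8 splicing genes on I, 2 of 10 on II, 2 of 12 on III, 3 of 10 on IV, 0 of 6 on V and 0 of 1 on X. Over all protein-coding genes the shares were 6.12%, 4.55%, 6.36%, 3.93%, 2.38% and 2.45% in the same order, so the counts of 0 on V and X are near the background. The divergent pair snr-3 and rsp-5, which like rsp-1 and rsp-2 joins splicing genes on both sides, had no ranked peak at either gene. Of the 3478 other divergent genes, 1923 had no ranked peak.

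With no threshold, a ranked promoter peak of any strength was listed at 32 of 47 splicing genes (68.1%, Wilson interval 53.8 to 79.6%), against 42.7% of all protein-coding genes. Both counts include the genes with a conservative peak, which were 9 of the splicing genes. The best peak of these 32 genes had a median signal of 62.1, and that of the 8506 other genes with one 49.7. For the 23 splicing genes with a ranked peak but no conservative one the median was 47.7, against 46.7 for the 7699 such genes outside the set. The 23 were among 38 splicing genes without a conservative peak, and the 7699 among 19119 other genes without one. The 15 splicing genes with no ranked peak included 7 of the 13 prp genes. Among these were prp-8, whose product forms the catalytic core, and prp-31, prp-4 and prp-6 of the tri-snRNP. A ranked peak stood at 6 of the 13 prp genes (46.2%), near the 42.7% of all protein-coding genes.

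The strongest of the peaks that missed the conservative list was that of snr-4, the SmD2 gene, with a signal of 134. It was 34.4 in replicate 1 and 90.6 in replicate 2, and its summit lay 30 bp from the small nuclear RNA gene T11F9.15, so binding at either gene cannot be told apart. The rsp-8 peak had a signal of 106, with 25.9 in replicate 1 and 83.9 in replicate 2, a log2 difference of 1.69. The lsm-6 peak had 95.5, with 36.3 and 64.6. All 3 were in the larger thresholded list over both replicates, called optimal here, and prp-40 was not. This made 11 of 47 splicing genes (23.4%) against 4.77% of all protein-coding genes. For rsp-3, the gene of the SR protein SF2/ASF, the best signal was 92.3, with 33.5 in replicate 1 and 40.3 in replicate 2. For lsm-7 it was 67.8, with 42.0 and 32.3, and for uaf-1, the large subunit of U2AF, 66.6, with 39.4 and 39.6. The peaks of rsp-3, lsm-7 and uaf-1 were in neither list. The best peaks of the other 17 genes ran from 63.7 at rnp-8 down to 11.9 at rsp-4, the gene of the SR protein SC35.

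**Figure D3:**
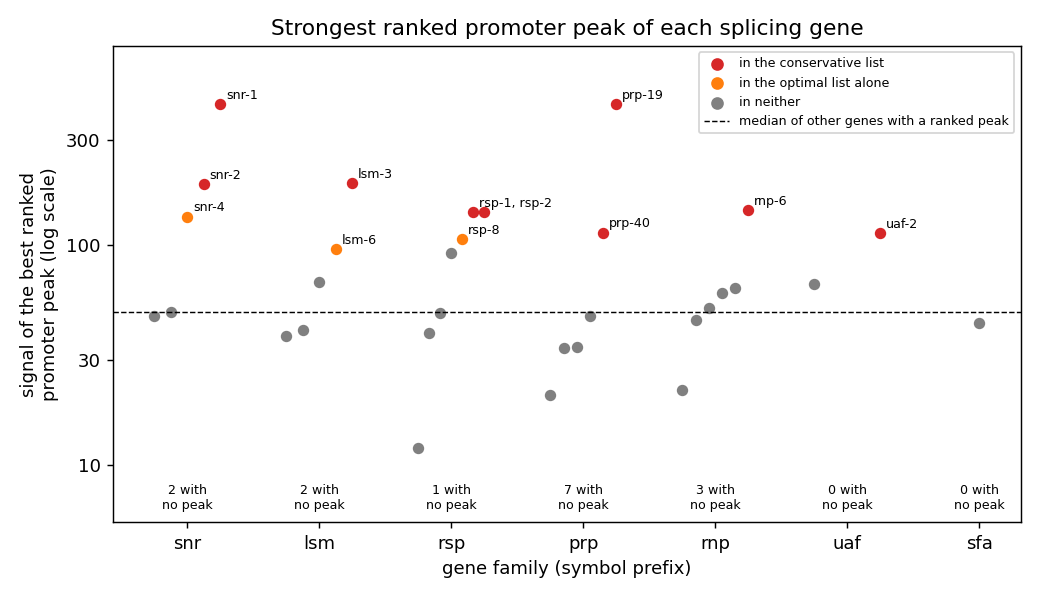
Signal of the strongest ranked promoter peak of each of 32 splicing genes, by family, on a log axis, with the number of genes that have none written below. Red genes are in the conservative list, orange ones in the optimal list alone and grey ones in neither, and the dashed line is the median of other genes with a ranked peak (49.7).

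Several splicing genes stand downstream in a row of genes on one strand, as in the operons of C. elegans, whose members are transcribed from the promoter of the first gene. By a proxy, in which the next gene upstream ends within 1000 bp on the same strand, 13 of 47 were downstream, as were 5681 of 19926 other genes, and 12 of the 13 had no promoter peak, as 5522 of the 5681 had none. Both counts are near the background in the conservative list. In the optimal list 3 of the 13 had a peak (23.1%, 8.18 to 50.3%) against 3.71% of other downstream genes. The own lists had 1 of 13 (7.69%) against 2.31% in replicate 1 and 2 of 13 (15.4%) against 2.46% in replicate 2. For 5 of the 12 without a conservative peak the first gene of the row had one, against 5.81% of 5522 other downstream genes without a peak. These were sfa-1, prp-3, prp-38, prp-39 and lsm-8. sfa-1 encodes the branch point binding protein SF1 and follows uaf-2 and cyn-13. The uaf-2 peak lay in an intron, 1102 bp downstream of the outermost 5' end of uaf-2, and so not at the start of the row. prp-38 follows plrg-1, a gene of the PRP19 complex whose own promoter peak is given below. prp-3 follows smrd-1, prp-39 follows hmgs-1, and the row of lsm-8 starts at Y73B6BL.29. Away from promoters, 2 of 47 splicing genes had a summit in the gene body (4.26%), against 2.06% of other genes. Both were intronic, at sfa-1 with a signal of 279.9 (142 in replicate 1 and 148 in replicate 2) and at rnp-8 with 122 (60.2 and 56.5).

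Other genes of pre-mRNA processing were taken as 5 lists. Of 40 further spliceosome genes, 9 had a promoter peak (22.5%, Wilson interval 12.3 to 37.5%), and of 19 genes of 3' end processing, 4 had one (21.1%, 8.51 to 43.3%). The count was 5 of 24 regulators of alternative splicing and hnRNP genes (20.8%, 9.24 to 40.5%) and 1 of 14 genes of the exon junction complex and mRNA export (7.14%). It was 0 of 11 genes of snRNP assembly, cap binding and trans-splicing, for which the Wilson interval reaches 25.9%. In the own lists of replicates 1 and 2 and in the optimal list, the spliceosome count was 8, 5 and 8 of 40. The regulator count was 3, 3 and 3 of 24, and the 3' end count 3, 5 and 4 of 19. The other lists kept their counts of 1 and 0. Over all protein-coding genes the shares for replicate 1, replicate 2 and the optimal list were 3.09%, 3.42% and 4.77%. Over the 5 lists together, 19 of 108 had a peak in the conservative list (17.6%, 11.6 to 25.8%), against the 4.09% of all protein-coding genes. When each summit counted for its nearest gene alone, 17 of the 108 kept one (15.7%), beside 2 of the 47 splicing genes and 3.05% of all protein-coding genes.

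The strongest peaks of the spliceosome list were at plrg-1 (signal 447), rsr-1, which encodes a homologue of the splicing coactivator SRm160 (314), the helicase gene mog-4 (218) and cwc-15 (174). The plrg-1 peak was 187 in replicate 1 and had no summit within 200 bp in replicate 2. Its -log10 IDR over both replicates was 4.12, so the missing match cannot be read as absence of a peak there. In 3' end processing they were at cfim-2, a gene of cleavage factor I (886), cpsf-1 (249), cpf-2 (236) and cids-2 (134). The cfim-2 summit lay 63 bp from the snoRNA gene D1046.6. Among regulators, peaks stood at hrpl-1 (382), hrpf-1 (119) and the Fox family gene asd-1 (108). The hrpl-1 summit lay within a tRNA gene and had no summit within 200 bp in replicate 2, although its -log10 IDR was 3.91. The peak of the export list was at thoc-5, a gene of the THO complex (182). None of the 8 peaks at the 47 splicing genes lay within 200 bp of a tRNA, snoRNA or snRNA gene.

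**Figure D4:**
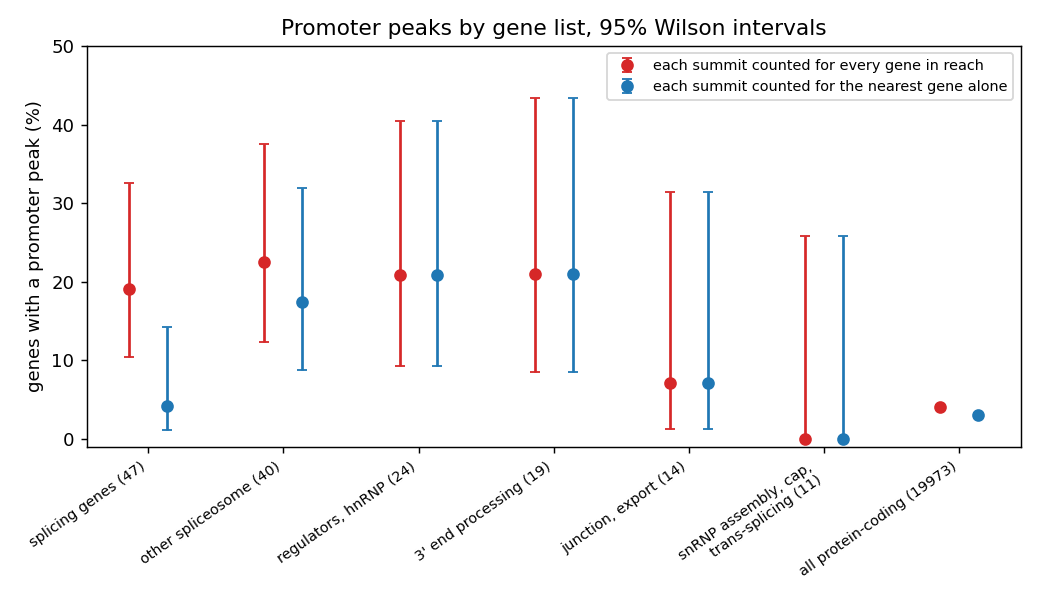
Share of genes with a conservative promoter peak for the splicing genes, the 5 further lists and all protein-coding genes, with 95% Wilson intervals. Red points count each summit for every gene in reach and blue points for the nearest gene alone, and the share of the splicing genes falls from 19.1% to 4.26% between them.

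The splicing gene summits resembled other promoter summits in base composition. The 101 bp around them held a median of 50% G and C (44.6 to 60.4%), against 50.5% at the other promoter summits, and windows centred 500 bp away held 38.6% and 38.1%. The prp-40 window printed above was the richest, at 60.4%. From the nearest 5' end of any protein-coding gene, 7 of the 8 summits lay within 200 bp (87.5%), and 306 of 642 others did (47.7%). The exception was uaf-2.

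The forkhead core GTAAACA was in none of the 8 windows (0 of 8, which allows up to 32.4% by the Wilson bound), and in 0.779% of the windows at the other promoter summits. Motifs were searched on both strands and each on its own, so 1 base could count for several. Also absent from the 8 windows were GAGAGA (found in 15.1% of the others), the motif CTTGCGC (6.39%) and the motif TTTCAG (8.57%). TATAAA was in 3 of 8 (Wilson interval 13.7 to 69.4%), those of snr-2, of rsp-1 and rsp-2, and of uaf-2, and in 22 of 642 others (3.43%). Among windows of the same length centred 150 bp upstream of all 19973 genes, GTAAACA was in 1.78%, GAGAGA in 8.42%, CTTGCGC in 0.456%, TATAAA in 13.4% and TTTCAG in 15.1%. These windows held a median of 33.7% G and C, against 50.5% at the other promoter summits. They match the summit windows in length and not in base composition, so a lower share at summits cannot be read as depletion. In the 300 bp promoters, from 250 bp before to 50 bp after the outermost 5' end, TTTCAG was in 36 of 47 splicing genes (76.6%, 62.8 to 86.4%) and in 51.7% of all genes. TTTCAG is the consensus end of C. elegans introns and of trans-splice acceptor sites. The count covered both strands and did not pick out such sites, so whether the matches are acceptor sites was not tested. TATAAA was in 11 of 47 (23.4%, 13.6 to 37.2%) and in 37.9% of all genes. GAGAGA was in 8 of 47 (17%) and in 21.8% of all, and the motif CTTGCGC in 0 of 47 and in 1.23% of all. GTAAACA was in 0 of the 47 promoters (up to 7.56% by the Wilson bound) and in 4.77% of all. A match is a description of the letters, and no binding follows from it.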

How the data were processed

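ChIP-seq peak lists from 2 replicates were used. The deposited file lists name ce11, 1 shared control file and reproducibility by IDR. No aligner, peak caller or depth is given in the sources used here. The signal of each peak is the authors' deposited value, with no stated scaling between replicates. The deposited score, a whole-number form of the IDR, was not used. The -log10 of the global IDR was deposited in the ranked lists. Its lowest value in the conservative list was 2.00, an IDR of 0.01. Replicate signals came from the nearest summit within 200 bp in each replicate's own ranked list. Alignments and signal tracks were not analysed here. Genes and 5' ends were those of Ensembl release 115, and mitochondrial peaks were set aside. Intervals are 95% Wilson intervals. No test was run, since there is 1 group of 2 samples. Ranks are by signal.

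The genes and lists were chosen with earlier results of these data known. Of 117 listed symbols, 9 were not found in the annotation. Named were every splicing gene with a peak, the 6 strongest without one, and up to 4 per further list; 1 gene of the regulator list is not reported here. The assignment of summits was tested on planted summits. Python 3.11.15, pandas 2.3.3, NumPy 2.4.6, SciPy 1.17.1 and matplotlib 3.10.9 were used. Results were recomputed under 12 other settings, 3 of them chosen after seeing the data.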

Additional observations from a re-analysis of the deposited data

How the results depend on the processing

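The share of splicing genes with a promoter peak was 19.1%, against 4.05% of other genes, and under 10 of the 12 alternatives it was 3.39 to 5.65 times theirs. All 10 counted each summit for every gene in reach, so they cannot show whether the excess holds under another assignment. Under the other 2 the share in the conservative list was near the background, and no excess can be read from them. Counting each summit for its nearest gene alone gave 2 of 47 (4.26%, Wilson interval 1.17 to 14.2%) against 3.05%, with a median signal of 126 for the splicing genes. Outside divergent pairs, an alternative added after seeing the data, the shares were 1 of 22 (4.55%, 0.807 to 21.8%) and 2.91%. The median was 190.2 for the 1 splicing gene peak. Inside such pairs other genes were at 9.43% and the splicing gene median at 144. The share outside the pairs depended on the list: the optimal list had 4 of 22 (18.2%, 7.31 to 38.5%) against 3.49%. Replicate 1 had 1 of 22 (4.55%) against 2.10%, and replicate 2 had 3 of 22 (13.6%) against 2.41%. An IDR of 0.001 left 4 splicing genes (8.51% against 1.97%), with median signals of 313 and 268. These were snr-1, prp-19, lsm-3 and snr-2, and each of their summits lay closer to a gene outside the set. Without replicate 1 or 2, splicing genes were at 19.1% and 10.6%, other genes at 3.39% and 3.08%, and the medians, on each replicate's own scale, at 102 and 77.3 for splicing genes and 105 and 92.3 for others. Without replicate 2, rsp-1, rsp-2, prp-40 and uaf-2 lost their peaks, and without replicate 1, rnp-6 and prp-40 did while rsp-8 and snr-4 gained one, so the equal share holds different genes. The optimal set gave other genes 4.73% and the splicing genes a median of 140.3. Other genes were at 2.96% with the narrower promoter window (500 bp upstream to 100 bp downstream), where lsm-3 and prp-19 lost their peaks and the median was 142. They were at 5.78% with the wider one (2000 bp to 500 bp), where rsp-4 gained one. They were at 3.58% without summits near small RNA genes, and at 4.55% without genes downstream in a cluster, where the splicing gene median was 144. With outermost 5' ends alone, also added later, others were at 3.60% and the splicing gene median at 189. Causes were not tested. Peak lists limit what can be said of peaks below the threshold, and with 2 replicates no spread beyond the pair of values is known.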
